A study of Homo sapiens with 6 samples.

Results

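The genes described here encode the enzymes that make, salvage and remove deoxynucleotides: RRM1, RRM2, RRM2B, TYMS, TK1, DCK, DUT, DTYMK and SAMHD1. They were chosen by symbol, 9 of the 58299 Ensembl genes in the deposited count table, and each symbol matched 1 identifier. RNA came from AC16 cells, a human cardiomyocyte line made by fusing adult ventricular cells with transformed fibroblasts, and polyadenylated RNA was sequenced in 6 libraries. The treated group (3 libraries) had 100 nM CDDO-Me for 24 h and then 100 nM doxorubicin for 48 h. The control group (3 libraries) had 0.1% DMSO for 72 h. The labels do not say whether treated cells also had DMSO, or whether CDDO-Me was kept on during doxorubicin. CDDO-Me is a triterpenoid that activates the transcription factor NRF2, and doxorubicin is an anthracycline drug that makes topoisomerase II leave breaks in DNA. No group with a single drug was analysed here, so the compounds cannot be told apart, and the labels do not call the replicates separate cultures, so the spread behind each p-value may be technical.

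Ribonucleotide reductase turns ribonucleoside diphosphates into deoxyribonucleoside diphosphates. Its large subunit, RRM1, pairs with a small subunit that is either RRM2, made around S phase, or RRM2B, which is induced by DNA damage and serves DNA repair and mitochondrial DNA in resting cells. Thymidine nucleotides need further steps: DUT hydrolyses dUTP to dUMP, TYMS methylates dUMP to dTMP, TK1 makes dTMP from salvaged thymidine, and DTYMK phosphorylates dTMP. DCK phosphorylates salvaged deoxycytidine and purine deoxynucleosides, and SAMHD1 breaks deoxynucleoside triphosphates down.

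Control replicate 1 stood apart from the other controls on the second principal component of all genes (27.9, against -12.5 and -15.7), and values without it are given for each of the 9 genes and each other gene named by its call where leaving it out changes that call. Relative to the scaled size of each library, treated cells had more transcript of all 3 reductase subunits, of TYMS and of both salvage kinases. They had less of DUT, DTYMK and SAMHD1. Such levels are not amounts per cell. The calls of RRM1 and SAMHD1 were lost under some other settings, given with those genes. RRM2B changed most, to 3.57 times its control level. Among the increases TYMS (1.5-fold) and RRM2 (1.40-fold) followed, and DTYMK had the largest of the 3 decreases, to 0.690 of its control level. All 9 genes passed the filter on low counts, and 6 were called higher and 3 lower (edgeR quasi-likelihood test with Benjamini-Hochberg adjustment over all 15575 genes tested, threshold 0.05). The treatment moved much of the transcriptome: 63.5% of all genes tested were called, 32.3% higher and 31.2% lower. The treated and control libraries did not overlap for any of the 9 genes, which held for 66.7% of all genes tested. Tested against a 1.5-fold change instead of against no change, RRM2B alone of the 9 was called (edgeR glmTreat), where 19.2% of all genes were. In bulk RNA a change in the share of cells that express a gene and a change in the amount per cell cannot be told apart.

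**Figure D1:**
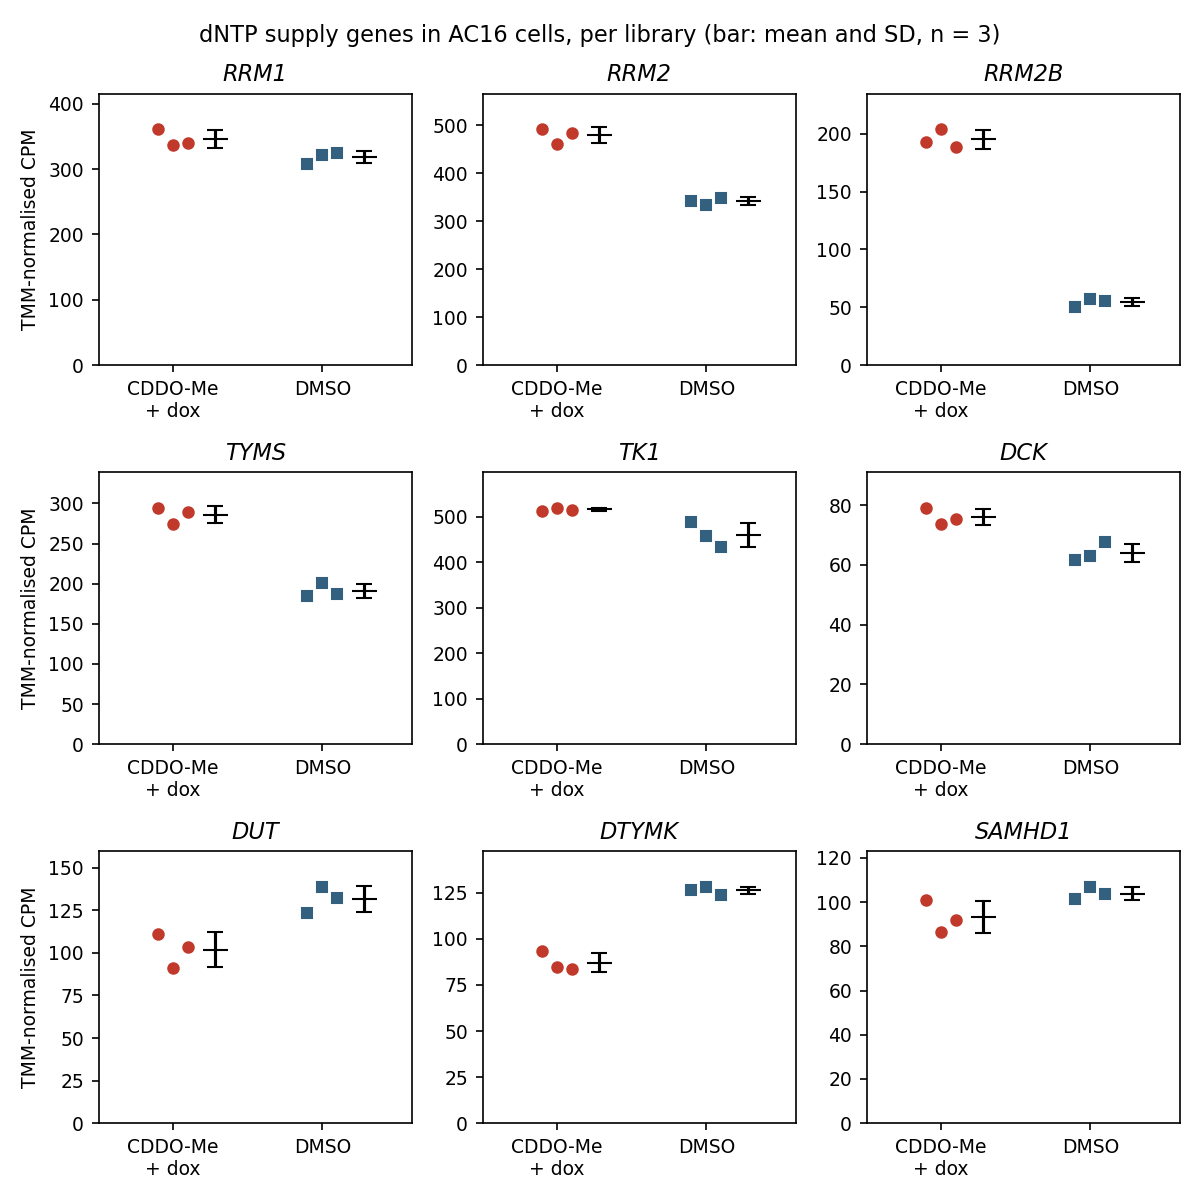
Counts scaled by library size and TMM factors (CPM, y axis from 0) of the 9 genes in each library, with treated libraries as red circles, DMSO libraries as blue squares, and black bars for the mean and SD of n = 3. RRM2B stands at 189 to 204 CPM in treated libraries, against 50.6 to 57.4 CPM in DMSO libraries, while for RRM1, TK1 and SAMHD1 the groups lie close together.

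The small subunit RRM2B (ENSG00000048392, GRCh38 chromosome 8, 102204502 to 102239118, minus strand) had 193, 204 and 189 CPM in treated cells, against 50.6, 57.4 and 55.9 CPM in DMSO cells. Every treated library was more than 3 times above every control library. The log2 change was 1.84 (SE 0.056, edgeR adjusted p = 5.09e-38), and 757 of the 15575 genes tested had a larger increase. RRM2, the small subunit of dividing cells (ENSG00000171848, chromosome 2, 10120698 to 10131419, plus strand), had 492, 459.9 and 484 CPM in treated cells, against 342, 333 and 349 CPM in DMSO cells. The lowest treated library was thus 111 CPM above the highest control. Its log2 change was 0.49 (SE 0.046, edgeR adjusted p = 1.55e-14). RRM1, the large subunit that holds the active site and the allosteric sites (ENSG00000167325, chromosome 11, 4094707 to 4138876, plus strand), had 362, 337 and 340.3 CPM in treated cells, against 308, 321 and 325 CPM in DMSO cells. The groups were apart by 11.7 CPM, less than the range within either group. The log2 change of RRM1 was 0.12 (SE 0.046, edgeR adjusted p = 0.0186). This call was lost without treated replicate 1 (log2 change 0.09, edgeR adjusted p = 0.133), without control replicate 1 (0.09, edgeR adjusted p = 0.104) and with no filter on low counts (0.10, edgeR adjusted p = 0.0760).

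The make-up of the reductase transcripts moved with these changes. Compared per length, as RPKM (TMM CPM divided by the table's exon length in kilobases), RRM2B made up 27.3%, 29.9% and 27.2% of the summed small-subunit level in treated libraries, against 12.4%, 14.2% and 13.3% in DMSO libraries. The share averaged 28.1% ± 1.5 in treated and 13.3% ± 0.885 in DMSO cells (SD, n = 3 each), and RRM2 was the more abundant small subunit in all 6 libraries. The summed small-subunit level was 125 ± 2.04 RPKM in treated cells and 74.0 ± 1.45 RPKM in DMSO cells. RRM1 therefore had 0.662 ± 0.016 of the small-subunit level in treated cells, against 1.03 ± 0.025 in DMSO cells. The libraries of both groups were apart in all of these quantities. These ratios are a description of transcripts, with no test. Exon lengths summed over all isoforms can misstate the level of a gene whose isoforms differ in length. RRM2 also shared 20.2% of its exon bases with another gene, and RRM2B shared none. If reads in shared bases went uncounted, RRM2 is understated and the share of RRM2B overstated in both groups. The summed small-subunit level would then be understated too. The ratio of RRM1 to that level would be overstated, since RRM1 shared only 1.51% of its exon bases. The share of RRM2B from counts with no length correction was 29% in treated and 13.8% in DMSO libraries.

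**Figure D2:**
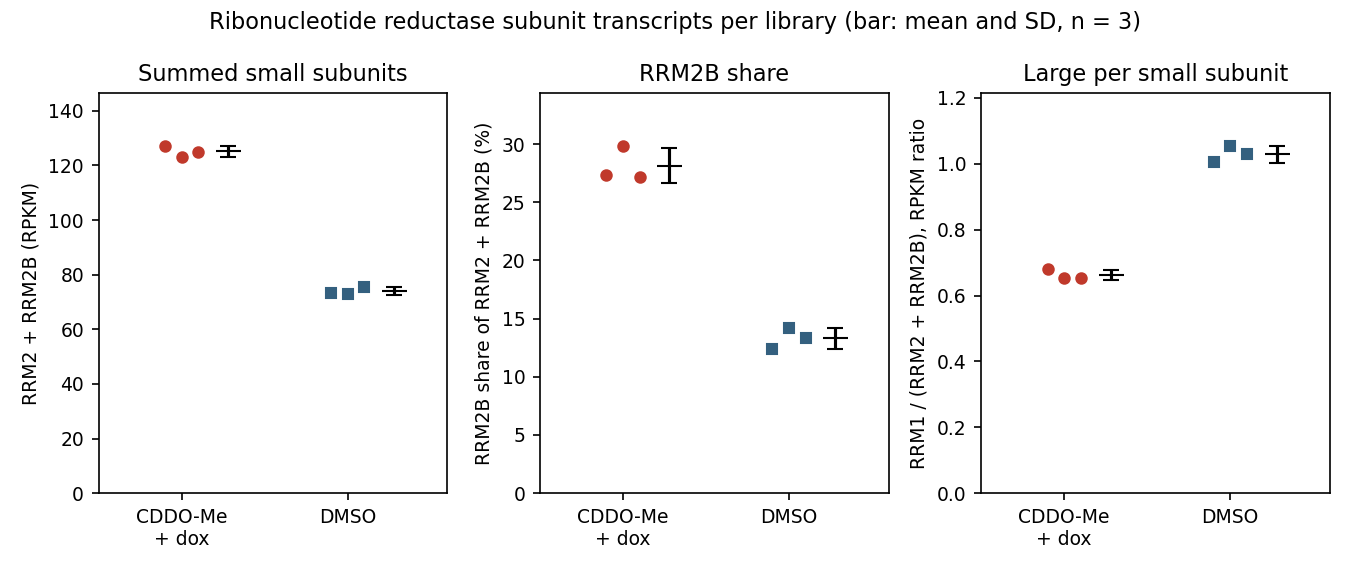
Summed RPKM of RRM2 and RRM2B (left), the share of RRM2B in that sum in percent (middle) and the RPKM ratio of RRM1 to that sum (right), with treated libraries as red circles, DMSO libraries as blue squares and black bars for mean and SD (n = 3). All y axes start at 0. The share of RRM2B is 27.2% to 29.9% in treated and 12.4% to 14.2% in DMSO libraries.

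The thymidylate branch moved in both directions. TYMS, which makes dTMP and is the target of fluoropyrimidine drugs (ENSG00000176890, chromosome 18, 657604 to 673578, plus strand), had 294, 274 and 289 CPM in treated cells, against 185, 201 and 187 CPM in DMSO cells. The groups were well apart, and the log2 change was 0.58 (SE 0.048, edgeR adjusted p = 1.01e-16). DTYMK, the next enzyme after TYMS and TK1 (ENSG00000168393, chromosome 2, 241675742 to 241686991, minus strand), had 93.2, 84.5 and 83.8 CPM in treated cells, against 127, 128 and 124 CPM in DMSO cells. Every treated library was lower than every control, with a log2 change of -0.53 (SE 0.054, edgeR adjusted p = 2.05e-13). DUT, which supplies dUMP to TYMS and keeps uracil out of DNA (ENSG00000128951, chromosome 15, 48331011 to 48343373, plus strand), had 111, 91.0 and 103 CPM in treated cells, against 123, 139 and 132 CPM in DMSO cells. Treated libraries had an SD of 10.2 CPM around a mean of 102 CPM, and all were lower than every control. The log2 change of DUT was -0.37 (SE 0.057, edgeR adjusted p = 8.33e-08). DUT makes a nuclear and a mitochondrial isoform from separate starts, and counts per gene do not separate them.

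The salvage kinases rose slightly. TK1, the cytosolic thymidine kinase of cycling cells (ENSG00000167900, chromosome 17, 78174075 to 78187233, minus strand), had 513, 519 and 515 CPM in treated cells, against 487, 458 and 433 CPM in DMSO cells. The treated libraries were within 5.65 CPM of each other, while the controls spread over 53.7 CPM. Its log2 change was 0.17 (SE 0.046, edgeR adjusted p = 0.00131). DCK, which also activates cytarabine and gemcitabine (ENSG00000156136, chromosome 4, 70992538 to 71030914, plus strand), had 79.1, 73.8 and 75.3 CPM in treated cells, against 61.6, 63.0 and 67.6 CPM in DMSO cells. Its log2 change was 0.25 (SE 0.059, edgeR adjusted p = 2.29e-04). The mitochondrial counterparts TK2 and DGUOK, which are no members of the set, had log2 changes of 0.29 (edgeR adjusted p = 0.00255) and -0.01 (edgeR adjusted p = 0.912).

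SAMHD1, the deoxynucleotide triphosphohydrolase (ENSG00000101347, chromosome 20, 36889773 to 36951901, minus strand), had 100.8, 86.5 and 92.1 CPM in treated cells, against 101.3, 107 and 104 CPM in DMSO cells. The highest treated and the lowest control library were 0.421 CPM apart. The log2 change was -0.16 (SE 0.056, edgeR adjusted p = 0.0118), and this call did not hold without treated replicate 2 (-0.11, edgeR adjusted p = 0.119), with upper-quartile factors (-0.10, edgeR adjusted p = 0.101) or with scaling by total counts only (-0.03, edgeR adjusted p = 0.660).

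**Figure D3:**
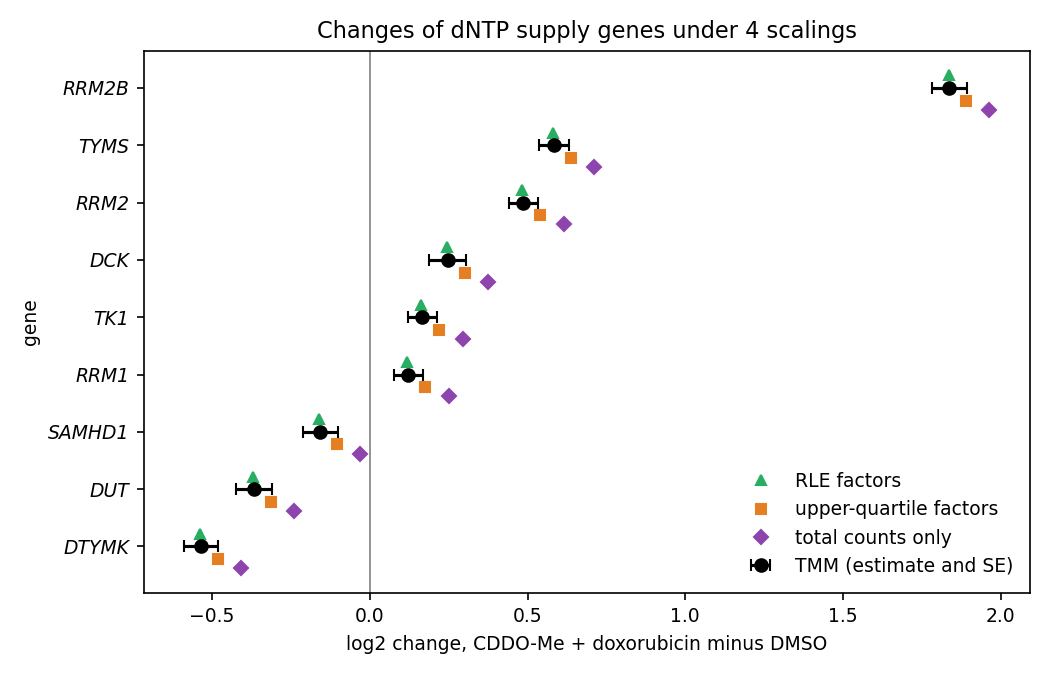
Log2 change (treated minus DMSO) of the 9 genes with TMM scaling, shown as black points with bars of 1 standard error, and the same change with RLE, upper-quartile and total-count scaling as coloured symbols. No gene changes side, and SAMHD1 comes closest to 0, at -0.03 with total counts only.

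Scaling shifts all 9 values together. With total counts in place of TMM factors the median log2 change of all genes was 0.15, against 0.02 with TMM, and higher genes made up 63.8% of all calls, against 50.8%. Such factors shift all genes nearly alike, so changes relative to the median of all genes are nearly kept by construction. With total counts these were 1.81 for RRM2B, 0.56 for TYMS, 0.46 for RRM2 and -0.56 for DTYMK on the log2 scale. Libraries also tended to deviate the same way for several of the genes. Treated replicate 1 was the highest treated library for 7 of the 9 genes and treated replicate 2 the lowest for 6, with RRM2B and TK1 as the exceptions in which replicate 2 was highest. Control replicate 1 was the lowest control for 6 genes.

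Per length, TK1 had the highest level in both groups, 277 ± 1.57 RPKM in treated and 247 ± 14.5 RPKM in DMSO cells. In treated cells TYMS (116 RPKM), RRM2 (89.9), RRM1 (82.9), DTYMK (35.6), RRM2B (35.2), DUT (27.7), DCK (23.6) and SAMHD1 (8.27 RPKM) followed. The ranges of RRM2 and RRM1 overlapped there, as did those of DTYMK and RRM2B. In DMSO cells the order was TYMS (77.2 RPKM), RRM1 (76.1), RRM2 (64.1), DTYMK (51.5), DUT (35.8), DCK (19.8), RRM2B (9.85) and SAMHD1 (9.23 RPKM). There the ranges of TYMS and RRM1 overlapped, and those of RRM2B and SAMHD1. RRM2B thus stood beside DTYMK in treated cells and beside SAMHD1 in DMSO cells.

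Promoter sequence was matched for 8 of the 9 genes (all but RRM2B), as RefSeq windows (GRCh38.p14) from 250 bases before to 50 bases after an annotated start. It was searched on both strands for letters that E2F factors bind (TTTCCCGC, TTTCGCGC, TTTGCCGC and TTTGGCGC), for the CCAAT box that NF-Y binds, and for the cell cycle element CHR (TTTGAA or TTCGAA). The 150 bases before the start are shown for the 4 genes of thymidylate supply and for RRM2. These genes were picked because they include members that rose and members that fell. RRM2 and TK1 have 2 windows each and DUT has 4, and the window with the most matches is shown. The other windows of TK1 and DUT held no match, and that of RRM2 held 1 CCAAT. Capitals mark the matches, 5′ to 3′ on the gene's strand. The windows are RRM2 at chr2:10122589-10122738 (plus strand), TYMS at chr18:657503-657652 (plus), TK1 at chr17:78187053-78187202 (minus), DUT at chr15:48332047-48332196 (plus, the most downstream of 4 windows) and DTYMK at chr2:241686816-241686965 (minus).
RRM2: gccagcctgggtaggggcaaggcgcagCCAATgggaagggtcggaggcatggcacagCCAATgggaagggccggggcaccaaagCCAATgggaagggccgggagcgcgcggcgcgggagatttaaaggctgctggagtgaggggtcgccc
TYMS: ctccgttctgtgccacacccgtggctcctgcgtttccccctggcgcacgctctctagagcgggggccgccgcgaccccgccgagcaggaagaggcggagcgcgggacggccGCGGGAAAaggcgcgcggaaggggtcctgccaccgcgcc
TK1: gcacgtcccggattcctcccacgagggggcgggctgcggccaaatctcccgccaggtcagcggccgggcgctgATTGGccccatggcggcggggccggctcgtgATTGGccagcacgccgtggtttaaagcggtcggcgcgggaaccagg
DUT: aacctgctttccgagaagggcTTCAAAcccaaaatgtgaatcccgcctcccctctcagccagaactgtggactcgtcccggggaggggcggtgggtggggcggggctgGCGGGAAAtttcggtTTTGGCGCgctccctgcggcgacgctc
DTYMK: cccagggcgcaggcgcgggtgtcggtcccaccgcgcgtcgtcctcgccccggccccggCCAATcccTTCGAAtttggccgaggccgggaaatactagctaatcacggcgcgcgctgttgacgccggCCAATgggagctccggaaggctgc

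RRM2 carried 3 CCAAT boxes in the stretch shown, spaced within 66 to 123 bases before the start, and TK1 had 2, which read ATTGG on this strand. DTYMK also had 2, and beside the upstream box a CHR match. TYMS had 1 E2F match and DUT had 2, together with 1 CHR match in the stretch shown. CCAAT was present in 34.6% of all 35116 RefSeq windows of this length, CHR letters in 16.4% and the E2F letters in 3.31%. Of the 8 genes, 5 held CCAAT, 3 CHR and 3 E2F letters in at least 1 window. RRM1 (CCAAT and CHR), DCK (E2F) and SAMHD1 (CCAAT) were the members not shown. These counts are per gene, over 13 windows for the 8 genes, while the shares of all windows are per window. A gene with several windows has more occasions to match, so the counts and shares are not alike. CCAAT stood in RRM2 and TK1, which rose, and in DTYMK, which fell, and E2F letters stood in TYMS, which rose, and in DUT, which fell. A match describes the sequence only. Letters of the NRF2-bound antioxidant response element (core TGACNNNGC, overlapping none of the matches shown) were found in windows of 3 members, RRM1, TK1 and DCK. Counted per window, these letters were in 13.3% of all windows. The match of TK1 lies in the stretch shown, in lower case, upstream of both boxes.

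The libraries carried no strand information, so reads from overlapping genes cannot be told apart. TYMS shared 26.2% of its exon bases with other genes: ENOSF1 on the opposite strand shares its end and the divergent transcript TYMSOS its start. TYMSOS had 9.88, 9.99 and 8.54 CPM in treated cells, against 1.09, 1.63 and 1.46 CPM in DMSO cells. This was an increase of 2.76 on the log2 scale (SE 0.19, edgeR adjusted p = 3.84e-20), at a level far below that of TYMS itself. ENOSF1 averaged 41.0 ± 0.81 CPM in treated and 35.6 ± 3.77 CPM in DMSO cells (SD, n = 3 each; log2 change 0.20, edgeR adjusted p = 0.0141), a call lost without treated replicate 3 (edgeR adjusted p = 0.0577) and without control replicate 1 (0.12, edgeR adjusted p = 0.182). RRM2 shared 20.2% of its exon bases with an overlapping gene that had at most 20 counts in a library, DUT 14.5%, SAMHD1 10.3% and RRM1 1.51% with genes at similarly low levels. DCK shared 6.17% with MOB1B on the same strand, which averaged 71.2 ± 5.24 CPM in treated and 54.3 ± 4.79 CPM in DMSO cells (log2 change 0.39, edgeR adjusted p = 4.08e-07). RRM2B, TK1 and DTYMK shared none. Of 13 processed copies of RRM2, DUT and TYMS in the table, none had more than 11 counts in a library. No label says how reads that map to several places were treated.

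The counts for lists of related genes stand beside 32.3% of all genes tested called higher and 31.2% called lower, and no test compared a list with those shares or with another list. Of 8 genes for electron supply and cofactor assembly, 5 were higher and 1 lower, and their median log2 change was 0.24, against 0.02 for all genes tested. The glutaredoxin gene GLRX averaged 73.6 ± 3.04 CPM in treated and 40.0 ± 1.69 CPM in DMSO cells (log2 change 0.88). Thioredoxin reductase TXNRD1 averaged 1477 ± 42.7 CPM in treated and 808 ± 12.8 CPM in DMSO cells (0.87), and glutathione reductase GSR rose by 0.70 on the log2 scale. TXN, the thioredoxin that reduces the enzyme, rose by 0.32. AHCYL1, which encodes a protein that binds and inhibits the reductase, was the 1 that fell (log2 change -0.50).

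Of 13 genes of purine synthesis 3 were higher and 7 lower (median log2 change -0.26). PFAS, an enzyme of the middle of the pathway, fell by 0.91 and IMPDH1, of the guanine branch, by 0.83 on the log2 scale. ADSS1, an adenylosuccinate synthase of muscle, rose at a low level, to 3.19 ± 0.67 CPM in treated cells, against 0.458 ± 0.30 CPM in DMSO cells. Of 5 genes of pyrimidine synthesis 1 was higher and 3 lower (median -0.28), with DHODH at -0.58, the CTP synthase gene CTPS1 at -0.49 and CAD, which starts the pathway, at -0.28. Of 12 folate genes tested 3 were higher and 7 lower (median -0.14). The folate carrier gene SLC19A1 (-1.15) and FPGS (-0.76), which traps folates in the cell, fell. The mitochondrial enzyme gene MTHFD2 rose to 417 ± 16.6 CPM in treated cells, against 211 ± 3.90 CPM in DMSO cells (0.98).

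Salvage and nucleotide kinase genes were higher in 5 and lower in 13 of 22 tested (median log2 change -0.23). Adenylate kinase AK1 rose (1.63), and NME7 (-1.17) and adenosine kinase ADK (-0.99) fell. Genes that break nucleotides down or clean the pool were higher in 7 and lower in 11 of 22 tested (median -0.27). At least 2-fold changes were 5 higher and 2 lower, where 10.9% of all genes tested were called that much higher and 4.62% that much lower. XDH, the xanthine oxidoreductase, rose to 17.1 ± 0.28 CPM in treated cells, against 1.74 ± 0.52 CPM in DMSO cells (log2 change 3.31, SE 0.16). Uridine phosphorylase UPP1 rose by 1.78 on the log2 scale. The purine phosphorylase PNP (1.34) and the nucleotidases NT5C1B (1.54) and NT5E (1.04) complete the 5 increases of at least 2-fold. DPYD, which degrades uracil and thymine, was 1 of the 2 such decreases, and the other is not named here. It fell to 20.7 ± 0.74 CPM in treated cells, against 61.5 ± 1.17 CPM in DMSO cells (-1.57). Of 6 nucleoside carriers tested 2 were higher and 1 lower (median 0.14). SLC29A4 rose by 1.73 and SLC25A36, a mitochondrial pyrimidine carrier, by 0.43, while SLC25A33 fell (-0.29), a call lost with total counts only (-0.17, edgeR adjusted p = 0.122) and without treated replicate 3 (-0.23, edgeR adjusted p = 0.0584). Of 13 genes of mitochondrial DNA upkeep tested 2 were higher and 6 lower (median -0.13). The exonuclease gene MGME1 rose (0.82), and the mitochondrial RNA polymerase gene POLRMT (-0.54) and SUCLG2 (-0.41) fell. The edgeR adjusted p of the 27 genes named by rule lay between 4.31e-42 for E2F7 and 0.00542 for SLC25A33.

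**Figure D4:**
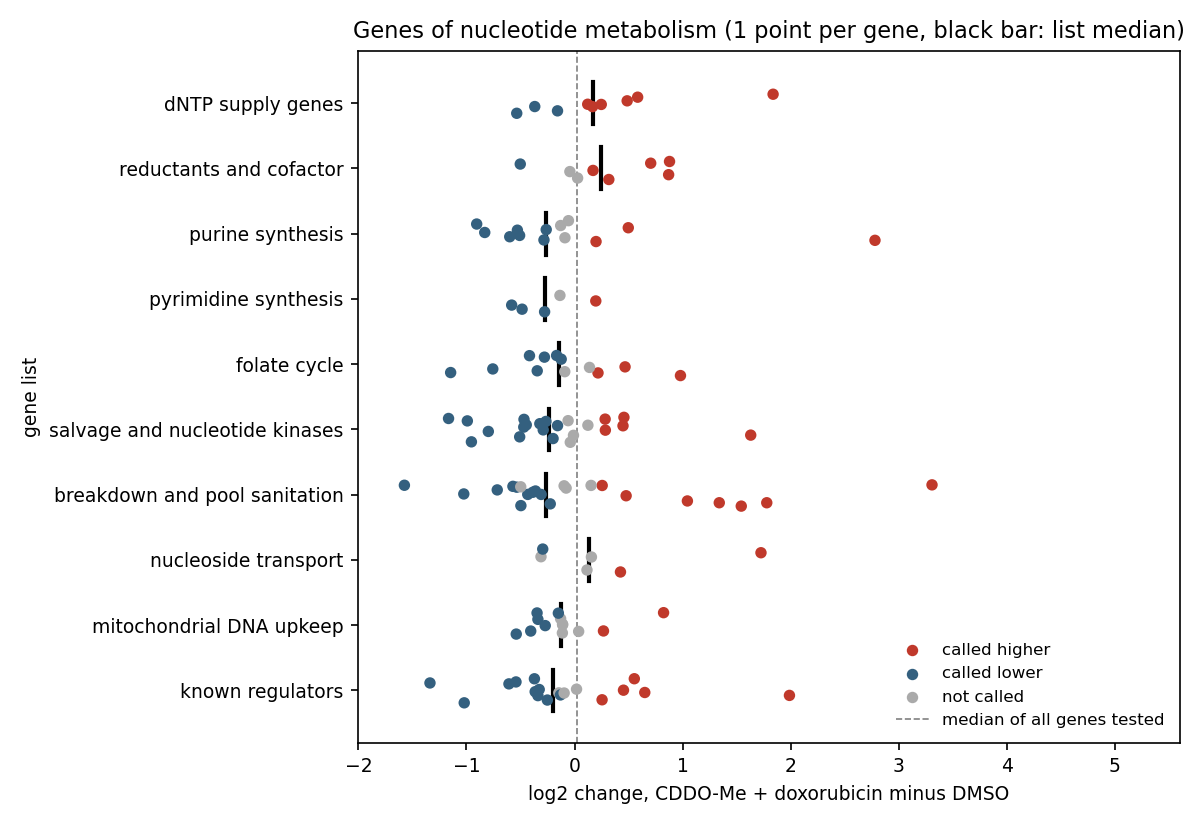
Log2 change (treated minus DMSO, x axis) of each tested gene of the 9 dNTP supply genes and of 9 lists of related genes, with red points called higher, blue called lower and grey not called. Black bars mark the list medians and the dashed line the median of all genes tested (0.02). The medians of purine (-0.26) and pyrimidine synthesis (-0.28) lie below it and that of the dNTP supply genes (0.17) above it.

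Among 18 known regulators of these genes 5 were higher and 10 lower (median log2 change -0.20). All 5 that rose were E2F genes. E2F7, a repressor of the family, rose to 308 ± 5.75 CPM in treated cells, against 77.6 ± 2.65 CPM in DMSO cells (log2 change 1.99, SE 0.051). The others were E2F8 (0.65), which also represses, and the activators E2F2 (0.55), E2F1 (0.45) and E2F3 (0.26), while E2F4 fell (-0.37). CCNA2, cyclin A2, which directs the kinases that phosphorylate SAMHD1, fell to 80.5 ± 4.30 CPM in treated cells, against 204 ± 4.07 CPM in DMSO cells (-1.34). CCNF, cyclin F, whose ubiquitin ligase removes the RRM2 protein in G2, fell to 48.4 ± 2.43 CPM in treated cells, against 98.2 ± 4.74 CPM in DMSO cells (-1.02). FZR1, which targets RRM2 and TK1 proteins after mitosis, fell by 0.61 on the log2 scale. The NF-Y subunit gene NFYA fell (-0.54), and NFYB (-0.15, edgeR adjusted p = 0.0833) and NFYC (0.02) were not called. Without control replicate 1, NFYB was called lower (-0.22, edgeR adjusted p = 0.0135). Protein levels were not measured.

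The profiles over the 6 libraries most like that of RRM2, by the Euclidean distance of log2 CPM centred on the control mean among 10455 other protein-coding genes of at least 5 CPM, were LMBRD2 (distance 0.0545), GHITM (0.0652) and PSPH (0.0713). For RRM2B they were ANXA4 (0.0799), ANKRA2 (0.149) and NDRG1 (0.170). ANXA4 averaged 126 ± 6.64 CPM in treated and 35.9 ± 3.11 CPM in DMSO cells (SD, n = 3 each). With 6 libraries in 2 groups, such distances mostly measure a like change between the groups.

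Marker genes describe the cells behind these values. By these markers the cells showed fibroblast genes at high levels and few cardiomyocyte genes, despite the name of the line. Of 13 cardiomyocyte markers 12 were under 1 CPM on average in both groups, TNNI3 had 0 counts in all libraries, and GATA4, a transcription factor of the heart and other organs, was the exception, at 14.3 ± 2.19 CPM in treated and 17.9 ± 2.12 CPM in DMSO cells. All 10 fibroblast markers were lower in treated cells, with a summed level of 5303 to 5707 CPM in treated and 14268 to 15498 CPM in DMSO libraries, and their part in the results above was not tested. Summed markers of endothelium (11.4 to 12.1 CPM in treated, 21.6 to 24.4 CPM in DMSO libraries) and leukocytes (4.96 to 5.66 CPM in treated, 2.22 to 3.14 CPM in DMSO libraries) were low. Of 4 endothelial markers tested TEK fell, to 7.01 ± 0.485 CPM in treated cells, against 20.7 ± 0.630 CPM in DMSO cells, while PECAM1 and KDR rose, to 1.49 and 1.84 CPM in treated cells, against 0.369 and 1.07 CPM in DMSO cells. Epithelial markers, led by KRT18, summed to 216 to 229 CPM in treated and 235 to 247 CPM in DMSO libraries. Depth was 19732013 to 20193957 counts in treated and 17150259 to 19387496 counts in DMSO libraries. Each of the 9 genes had at least 881 counts in every library. Genes with 0 counts numbered 29817 to 30278 in treated and 36094 to 36483 in DMSO libraries. With no filter on low counts the median log2 change of 36005 genes was 0.51, against 0.02 for the 15575 genes tested. Low-level rises, such as those of ADSS1, PECAM1 and KDR, stand beside this broad gain of low-count genes. Its cause was not tested.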

How the data were processed

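The authors deposited 1 table of whole-number counts per gene (featureCounts of Subread, after STAR and SAMtools on hg38/GRCh38, per the submitters' processing notes); libraries were unstranded and poly(A)-selected, per the labels' protocols. Its Length column gives exon bases per gene, per the file headers. The sources used here name neither the annotation release nor the counting options. Of 58299 Ensembl genes 57717 had a symbol, and 58179 were in GENCODE v29.

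Genes were filtered with filterByExpr (minimum count 10), which left 15575, scaled by TMM and tested with edgeR 4.0.16 (glmQLFit, glmQLFTest; R 4.3.3), treated against control, with Benjamini-Hochberg adjustment. The SE is the log2 change over the square root of F. Replicates differed by more than sampling noise (chi-square per degree of freedom 3.00 to 4.01).

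The members, lists and tests were chosen with earlier results of these data known. Named were the members, the 3 largest called changes of each list (mean of at least 1 CPM) and the nearest profiles; other list genes, TYMSOS, ENOSF1 and MOB1B were chosen after their values were seen. Alternative settings were other scaling (RLE, upper quartile, total counts), other filters, DESeq2 1.42.0, limma-voom (limma 3.58.1), a replicate block, glmTreat and each library left out.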

Additional observations from a re-analysis of the deposited data

How the results depend on the processing

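All 135 values of the 9 genes under the 15 alternatives kept their direction, and 121 kept their side of the threshold. Of the 14 lost calls, 8 came from testing against a 1.5-fold change, where 1 member was higher and 0 lower, and 1852 of all genes higher and 1141 lower; the other 6, of RRM1 and SAMHD1, stand with those genes. A test against a larger change calls fewer genes by its construction. With each library left out in turn, 5 to 6 members were called higher and 2 to 3 lower, and 4709 to 4960 of all genes higher and 4574 to 4735 lower. The RRM2B share then ranged from 27.3% to 28.6% in treated and from 12.9% to 13.8% in DMSO libraries, and the ratio of RRM1 to the small subunits from 0.653 to 0.667 in treated and from 1.02 to 1.04 in DMSO libraries. From counts with no length correction that ratio was 0.514 in treated and 0.803 in DMSO libraries, since RRM1 has the shorter exon length. No member had over 50% of its exon bases in other genes, so leaving such members out changed nothing. Same-numbered libraries of the 2 groups did not deviate together (correlations -0.0225, -0.00714 and -0.00718), and with the replicate number as a block 6 members were higher and 3 lower, with 4892 of all genes higher and 4761 lower. The list of known regulators was left out of the next tally. Of 240 counts for the other 8 related lists, 222 stayed within 1.5 times, and 15 of the other 18 came from the 1.5-fold test. The remaining 3 were in nucleoside transport, which has 6 tested genes; the cause was not tested. Without control replicate 1, calls differed for 5 list genes, and 2 more were called. The call of 1 gene, GGH, was lost (log2 change -0.12, edgeR adjusted p = 0.0666). ABAT (2.78, edgeR adjusted p = 3.72e-04) and SLC29A3 (2.68, edgeR adjusted p = 0.00143), which the filter had removed, were called higher.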
